A study of Mus musculus with 15 samples.

Results

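The genes described here are the mouse cytochrome P450 families Cyp1 to Cyp4, the UDP-glucuronosyltransferases (Ugt), the glutathione S-transferases (Gst) and the cytosolic sulfotransferases (Sult). They were taken by name: 174 of the 56605 non-control probes on the array carry a gene name of these families in the scanner files, and each gene is read through 1 probe, with 37008 genes on the array in all. The member genes are 3 Cyp1, 48 Cyp2, 7 Cyp3, 16 Cyp4, 12 Ugt, 20 Gst and 19 Sult genes. Of these genes, 85 were well above background (the scanner software's call) on 1 array or more, and 73 were so on every array of some group.

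The study profiled activated pancreatic stellate cells (PSC), the fibroblast-like cells of the pancreas that lay down tumour stroma, and mouse pancreatic cancer cells, on 1-colour Agilent arrays with 3 arrays in each of 5 groups. The stellate cells came from HT (heterozygous) or WT (wild-type) mice and were cultured for 2 weeks until activated. The cancer cells were kept for 24 h in medium conditioned by HT PSC, in medium conditioned by WT PSC, or in control medium. The labels name neither the heterozygous allele nor the cancer line, and nothing in them says whether the 3 arrays of a group came from separate mice or cultures, so p-values measure the spread between these arrays, which may be technical.

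Cytochrome P450 enzymes insert oxygen into drugs, steroids and fatty acids. The transferases then attach glucuronic acid, glutathione or sulfate, which makes the product soluble and ready for export. Liver and gut express most of these genes, under nuclear receptors and hepatocyte nuclear factors, while glutathione transferases and a few P450 enzymes are also made by connective tissue cells. Many of the genes sit in clusters of close relatives that arose by duplication.

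That descent limits how well a probe tells relatives apart, and the sequences of the probes show it. On mouse chromosome 19 (build mm9) the probe of Cyp2c67 lies at chr19:39683429-39683488 and that of Cyp2c68 at chr19:39763420-39763479, both on the minus strand. Over 59 aligned bases they differ at 4 positions, an identity of 93.2%. A stretch of 30 bases of each is shown with the 2 differing positions in capitals.
Cyp2c67: acAcagtcccagAaattccatctatattcc
Cyp2c68: acCcagtcccagGaattccatctatattcc
The signals of these 2 genes are therefore uncertain as to which relative they report. By the accessions the files list for it, the probe used for 19 of the member genes also matches another gene, among them those of Cyp2c66 (which lists Cyp2c65), Cyp2c68, Cyp2c40, Ugt2b36 (Ugt2b37) and Ugt1a10 (Ugt1a9). The probes of the genes that open the accounts of their families below, and of Ugt2b36, begin as follows, and each lists no other gene except that of Ugt2b36.
Cyp2c65 (chr19:39168290-39168349, plus strand): gtctgcaattccctatgctatgcaatgatt
Ugt2b34 (chr5:87318849-87318908, minus strand): gtgtatgtatgtgattcatgtcccttttta
Ugt2b36 (chr5:87495455-87509913, minus strand, in blocks that span this stretch): aagtcatagacaatcctttctataaagaga
Sult1d1 (chr5:87984658-87984717, minus strand): acacagtatatttttagttttagttcctaa
Gsta2 (chr9:78178856-78178915, minus strand): gccacagatactggcctctaattgtttgca

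A level here is a log2 signal with the 75th percentile of its array taken off, so 0 equals that percentile and 1 unit is a doubling. Across the arrays 54.3% to 63.8% of spots were well above background and no spot was saturated. Replicate arrays correlated at 0.982 to 0.991. Stellate cell identity was clear on all 6 PSC arrays, where the type I collagen gene Col1a1 read 7.21 to 7.75, against -4.72 to -2.85 on the cancer cell arrays. Array PSC HT 3 stood apart: it read -2.45 for the epithelial cadherin Cdh1, against -8.22 to -7.61 on the other 5 PSC arrays and 4.22 to 4.49 on the cancer cell arrays. Enzyme genes of the cancer cells were likewise raised on it, as given with the stellate cell results, and the count of genes called between the genotypes is also given without it.

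**Figure D1:**
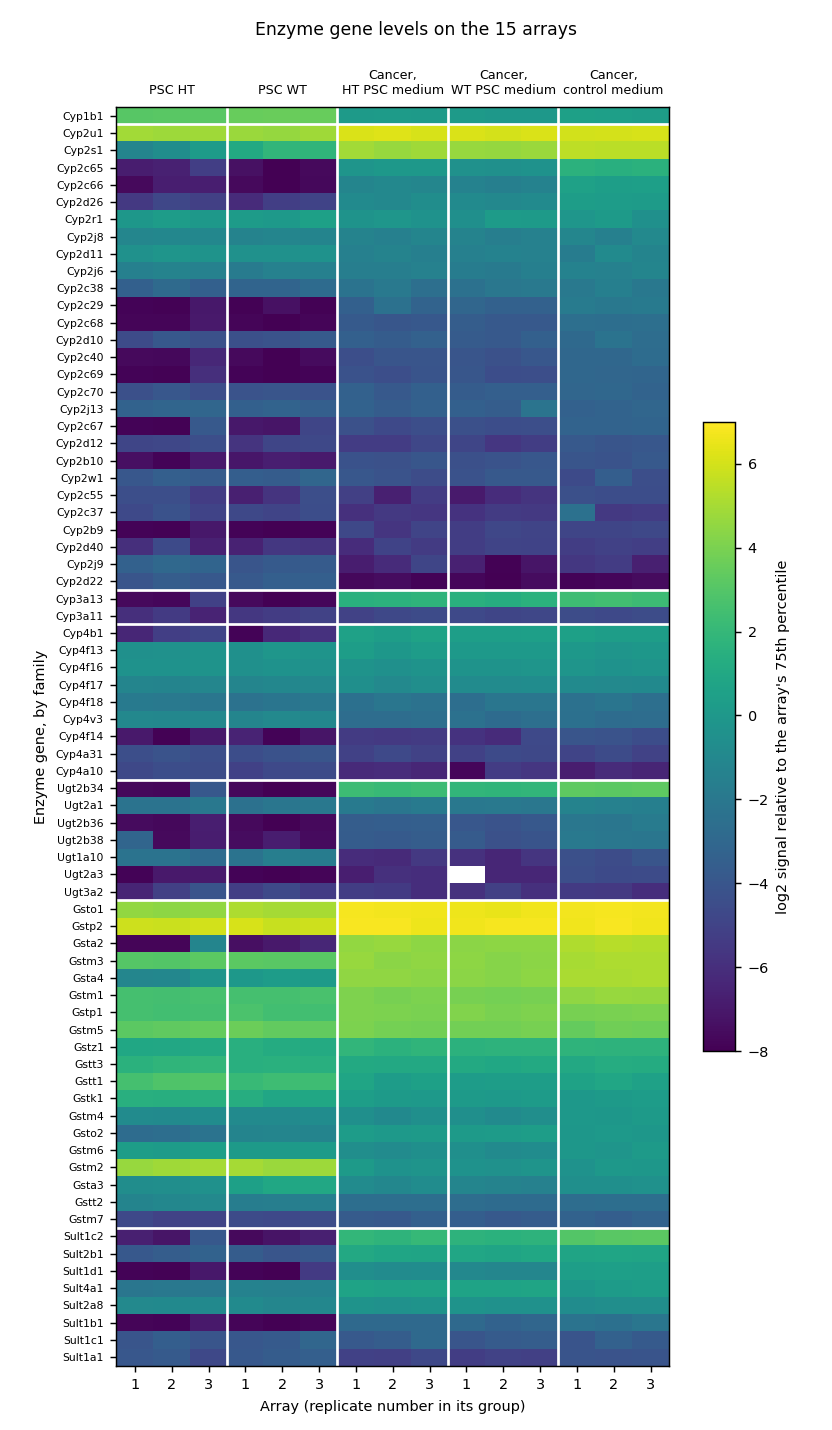
Each row is 1 of the 73 enzyme genes that passed background on every array of some group, and each column is 1 array, in the order PSC HT, PSC WT, then cancer cells in HT PSC medium, WT PSC medium and control medium. Colour gives the log2 level relative to the array's 75th percentile, and the white cell is a reading that the scanner software marked as an outlier. Most Gst rows are bright in both cell types, while the rows of Cyp2c65, Cyp3a13, Ugt2b34, Gsta2 and Sult1c2 are bright only in cancer cells, apart from a brighter cell on PSC HT 3 for Gsta2, Ugt2b34, Sult1c2 and Cyp3a13.

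Glutathione transferases were the family most widely detected. Of 20 Gst genes 17 were well above background on all 15 arrays, against 11 of 48 Cyp2, 6 of 16 Cyp4, 4 of 19 Sult and 1 each of 12 Ugt and 3 Cyp1 genes. None of the 7 Cyp3 genes was. In the cancer cells 61, 63 and 68 member genes were well above background on all 3 arrays in HT PSC medium, WT PSC medium and control medium. In stellate cells these numbers were 45 in HT and 48 in WT. Cyp1a1 and Cyp1a2, the P450 genes best known as targets of the aryl hydrocarbon receptor, were not well above background on any array.

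The first question was what conditioned medium of stellate cells changes in these genes in the cancer cells. In HT PSC medium 28 enzyme genes fell and 1 rose, of 68 tested. In WT PSC medium 32 fell and 1 rose of 68. A gene detected in control medium alone was also tested, which favours falls. A separate fit took only genes well above background on every cancer cell array, with its own adjustment, 61 of them enzyme genes. In that fit 25 of the 61 fell and 2 rose in HT PSC medium, beside 1103 calls over all genes. In WT PSC medium 27 of these 61 fell and 1 rose, beside 1168 calls over all genes. Cyp2c genes, glucuronosyltransferases, the Sult1 genes and the alpha class Gst genes made up most of the falls. Over all 19687 genes tested, 5.47% passed the threshold in HT PSC medium (2.5% lower and 2.97% higher) and 5.95% in WT PSC medium (3.15% lower and 2.8% higher), at an adjusted p of 0.05 in limma, fitted across all genes. At an unadjusted p under 0.05 there were 39 enzyme genes in HT PSC medium and 40 in WT PSC medium, beside 19.8% and 20.2% of all genes. The median log2 difference of the 68 genes was -0.30 in HT PSC medium, beside 0.01 over all genes, and -0.35 in WT PSC medium, beside 0.03. Both comparisons use the same 3 control arrays, so they are not independent of each other. In bulk RNA, fewer cells of a kind and less RNA per cell cannot be told apart. Of the cell type markers tested, 2 of 5 macrophage markers and 2 of 9 epithelial markers were higher in each PSC medium. In each, 1 epithelial marker and 1 of 5 hepatocyte markers were lower, and in HT PSC medium 1 of 3 pancreatic acinar markers was lower too. The median level of the 11 macrophage markers was -7.68 to -7.42 in HT PSC medium, -7.86 to -7.42 in WT PSC medium and -7.69 to -7.39 in control medium. That of the 9 epithelial markers was 4.51 to 4.74, 4.64 to 4.68 and 4.59 to 4.68, and that of the 6 hepatocyte markers -4.52 to -3.99, -4.76 to -4.29 and -4.34 to -4.17. For the 7 acinar markers it was -7.42 to -6.26, -6.72 to -6.49 and -6.54 to -3.72. The part of these markers' cells in the falls was not tested.

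**Figure D2:**
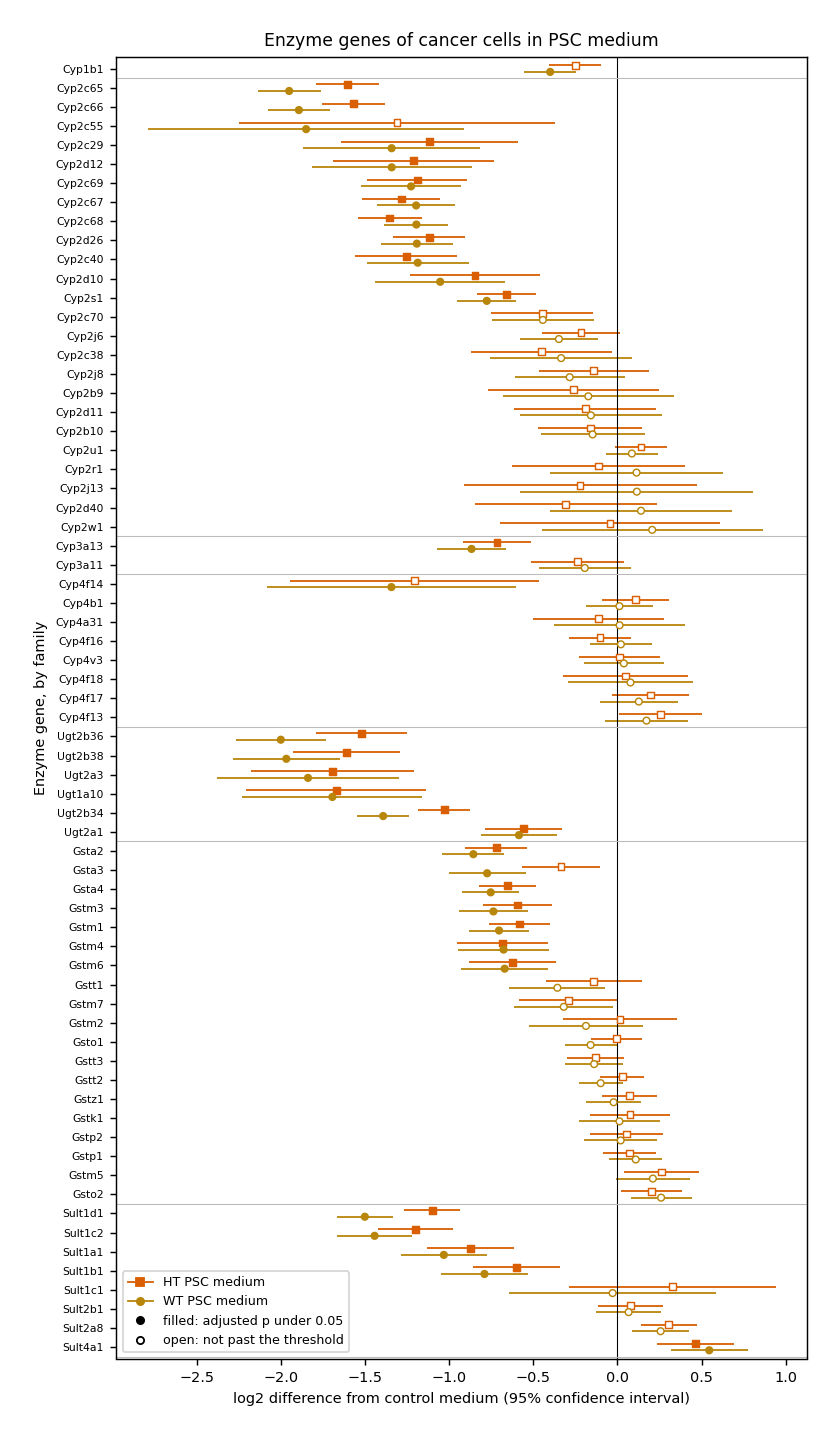
The x axis gives the log2 difference from control medium with its 95% confidence interval for the 68 enzyme genes tested, with squares for HT PSC medium and circles for WT PSC medium, filled where the adjusted p was under 0.05. Genes are grouped by family and sorted within it. All 6 Ugt genes lie left of 0, between -2.0 and -0.56, while the Cyp4 genes other than Cyp4f14 lie around 0.

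Among the P450 genes the Cyp2c cluster of chromosome 19, whose enzymes oxidise arachidonic acid and many drugs, was most affected. Of its 10 members tested 7 fell in HT PSC medium and 8 in WT PSC medium. Cyp2c65 read -0.19, 0.01 and 0.01 in HT PSC medium, -0.39, -0.48 and -0.35 in WT PSC medium, and 1.62, 1.44 and 1.58 in control medium. Every array in PSC medium was below every control array. It fell by 1.61 ± 0.08 in HT PSC medium (SE, n = 3 arrays per group, limma adjusted p = 9.62e-05) and by 1.95 ± 0.08 in WT PSC medium (adjusted p = 2.45e-05). Cyp2c66, its neighbour, read -1.18, -1.01 and -1.09 in HT PSC medium, -1.36, -1.54 and -1.36 in WT PSC medium, and 0.57, 0.40 and 0.46 in control medium. These values gave falls of 1.57 ± 0.08 in HT PSC medium and 1.89 ± 0.08 in WT PSC medium. Because its probe also lists Cyp2c65, the 2 genes may share signal.

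Cyp2c68, Cyp2c67 and Cyp2c40 fell by smaller amounts that were alike in both media. Cyp2c68 read -3.77, -4.01 and -3.88 in HT PSC medium, -3.60, -3.81 and -3.78 in WT PSC medium, and -2.54, -2.56 and -2.51 in control medium, which are falls of 1.35 ± 0.08 and 1.19 ± 0.08. Cyp2c67 fell by 1.29 ± 0.10 in HT PSC medium and by 1.20 ± 0.10 in WT PSC medium, and Cyp2c40 by 1.25 ± 0.13 and 1.19 ± 0.13 (adjusted p of 0.0018 or less for each). Given the shared probe sequence above, these values need not be independent. Cyp2c55 was well above background on no array in WT PSC medium and on all 3 in control medium, and was at least 2.19-fold lower (adjusted p = 0.0358). That call was lost when any 1 of the 6 arrays was left out and with a replicate block (adjusted p = 0.0567), and in HT PSC medium, where 2 arrays measured it, Cyp2c55 did not pass (-1.31 ± 0.41, adjusted p = 0.117). A second probe of Cyp2c55, looked at after its values were seen, did not follow: it read -3.22, -1.97 and -6.89 in WT PSC medium and -5.58, -5.05 and -5.77 in control medium.

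Among the other P450 genes the largest falls were about as large as those of Cyp2c68, Cyp2c67 and Cyp2c40. The rest fell less or did not pass. Of 5 Cyp2d genes tested 3 fell in each PSC medium. Cyp3a13, a Cyp3a gene of the gut, read 1.54, 1.66 and 1.74 in HT PSC medium, 1.55, 1.35 and 1.58 in WT PSC medium, and 2.34, 2.45 and 2.28 in control medium. It fell by 0.71 ± 0.09 and 0.87 ± 0.09 (adjusted p = 0.00333 and 0.00111). Cyp2s1, a P450 of epithelia, fell by 0.66 ± 0.08 in HT PSC medium and by 0.78 ± 0.08 in WT PSC medium. Cyp2d12 fell by 1.21 ± 0.21 and 1.34 ± 0.21, with 2 of 3 arrays well above background in each PSC medium, and the call in HT PSC medium was lost without HT array 1, HT array 2 or control array 1. Other Cyp2 genes named for a high mean gave no call. Cyp2u1, a fatty acid hydroxylase, had 0.14 ± 0.07 and 0.09 ± 0.07, and the vitamin D 25-hydroxylase Cyp2r1 had -0.11 ± 0.22 and 0.11 ± 0.22. The Cyp2u1 probe used is largely a GT repeat and lists no gene. Dimmer probes of Cyp2u1, looked at after their values were seen, read -3.49 and -7.03 in control medium. The first of them gave -0.07 ± 0.23 and 0.17 ± 0.23, so the level of Cyp2u1 is uncertain. Of 8 Cyp4 genes, which hydroxylate fatty acids, 0 passed in HT PSC medium (limma, 2 at an unadjusted p under 0.05) and 1 in WT PSC medium. That gene, Cyp4f14, named for this call, fell by 1.34 ± 0.32 (adjusted p = 0.0489), with 1 of 3 arrays in WT PSC medium well above background, and the call was lost without any 1 of 5 of the 6 arrays and with a replicate block. Cyp4f13, Cyp4f16 and Cyp4f17 lay between -0.10 and 0.26 in both media. Cyp1b1, which oxidises oestradiol and polycyclic hydrocarbons, read 0.17, 0.23 and 0.20 in HT PSC medium, 0.15, -0.0017 and -0.0043 in WT PSC medium, and 0.51, 0.46 and 0.37 in control medium. It had -0.25 ± 0.07 in HT PSC medium (adjusted p = 0.0746) and fell by 0.40 ± 0.07 in WT PSC medium (adjusted p = 0.0114), a call lost without WT array 2 or WT array 3.

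All 6 glucuronosyltransferase genes tested fell in both media. Of these, Ugt1a10 and Ugt2a3 entered the test only through control medium, where they were high, so a rise was hardly open to them. Ugt2b34 read 2.29, 2.11 and 2.27 in HT PSC medium, 1.89, 1.81 and 1.88 in WT PSC medium, and 3.28, 3.21 and 3.26 in control medium. The 3 groups did not overlap, and the falls were 1.03 ± 0.07 (adjusted p = 0.000281) and 1.39 ± 0.07 (adjusted p = 4.36e-05). Ugt2b36 read -3.57, -3.49 and -3.44 in HT PSC medium, -3.90, -4.18 and -3.85 in WT PSC medium, and -2.04, -2.13 and -1.76 in control medium. It fell by 1.52 ± 0.12 in HT PSC medium and by 2.0 ± 0.12 in WT PSC medium. Ugt2b38 fell by 1.61 ± 0.14 in HT PSC medium and by 1.97 ± 0.14 in WT PSC medium. Ugt2a1, of the olfactory lining, gave falls of 0.56 ± 0.10 and 0.59 ± 0.10. Ugt1a10, of the Ugt1 locus on chromosome 1 whose transcripts share their last exons, was well above background on no array in either PSC medium and on all 3 in control medium. It was at least 2.18-fold lower in HT PSC medium and at least 2.39-fold lower in WT PSC medium. Ugt2a3 was at least 1.86-fold lower in HT PSC medium (adjusted p = 0.00509). In WT PSC medium, with 1 array left out as an outlier reading and 1 of the others well above background, it fell by 1.84 ± 0.23.

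**Figure D3:**
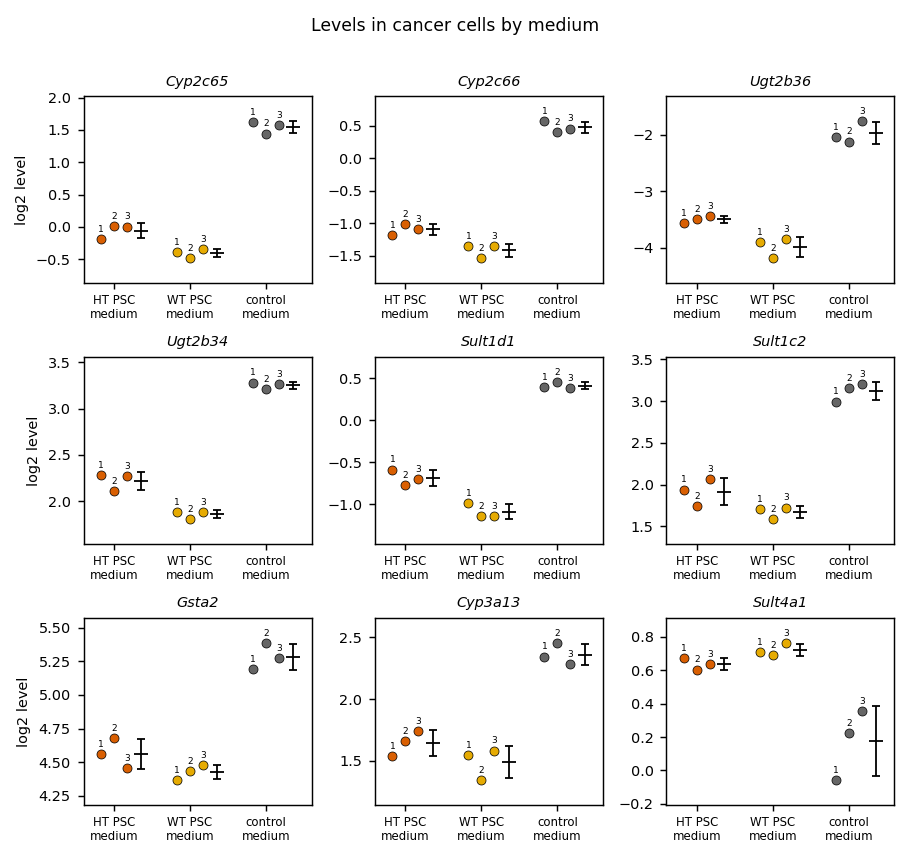
Points are the log2 levels of 9 enzyme genes on each cancer cell array in HT PSC medium, WT PSC medium and control medium, numbered by replicate, with the mean and SD of the 3 arrays beside them. Each panel has its own y axis, which does not start at 0. For 8 of the genes all arrays in PSC medium lie below all control arrays, and Sult4a1 lies above them. All 9 were picked among the calls, so this separation is no further test.

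The sulfotransferases were split. Of 5 Sult1 genes tested, 4 fell in each PSC medium. Sult1d1, which sulfates catecholamines in mice, read -0.59, -0.77 and -0.70 in HT PSC medium, -0.99, -1.14 and -1.14 in WT PSC medium, and 0.40, 0.46 and 0.38 in control medium. It fell by 1.10 ± 0.07 and 1.5 ± 0.07 (adjusted p = 0.000281 and 4.36e-05), and a dimmer probe of Sult1d1 gave -1.69 ± 0.11 in WT PSC medium. Sult1c2, a sulfotransferase of phenols, read 1.94, 1.74 and 2.07 in HT PSC medium, 1.71, 1.59 and 1.73 in WT PSC medium, and 2.99, 3.16 and 3.20 in control medium. The falls were 1.20 ± 0.10 and 1.44 ± 0.10. Sult4a1, a brain sulfotransferase with no settled substrate, was the 1 of the 68 enzyme genes tested that rose. It read 0.67, 0.60 and 0.64 in HT PSC medium, 0.71, 0.69 and 0.76 in WT PSC medium, and -0.06, 0.22 and 0.36 in control medium. The rises were 0.46 ± 0.10 (adjusted p = 0.0341) and 0.55 ± 0.10 (adjusted p = 0.0158). They were lost with median centring (adjusted p = 0.0904 and 0.0506). Without any 1 of the 3 arrays of its PSC medium each was lost too, and that of HT PSC medium also without control array 2. The cholesterol sulfotransferase Sult2b1 had 0.08 ± 0.08 and 0.07 ± 0.08, and Sult2a8 had 0.31 ± 0.07 and 0.26 ± 0.07, with adjusted p = 0.0515 and 0.0869.

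Glutathione transferases differed by class. Of 3 alpha class genes 2 fell in HT PSC medium and 3 in WT PSC medium, and 4 of 7 mu class genes fell in each, while 0 of the 2 omega, 2 pi and 3 theta genes tested passed in limma in either medium (at an unadjusted p under 0.05 these were Gsto2 in both media, and Gsto1 and Gstt1 in WT PSC medium). Gsta2, an alpha class enzyme that detoxifies products of lipid peroxidation, read 4.56, 4.68 and 4.45 in HT PSC medium, 4.37, 4.44 and 4.48 in WT PSC medium, and 5.19, 5.39 and 5.27 in control medium. The falls were 0.72 ± 0.08 and 0.86 ± 0.08 (adjusted p = 0.00233 and 0.000759). Gsta3 had -0.33 ± 0.10 in HT PSC medium (adjusted p = 0.101) and fell by 0.77 ± 0.10 in WT PSC medium (adjusted p = 0.00351). Its dimmer probe, chosen after its values were seen, gave -0.46 ± 0.24 in WT PSC medium, which did not pass. Gstm3, of the mu class, fell by 0.59 ± 0.09 and 0.74 ± 0.09. Gstm6, another of the mu class falls, had -0.62 ± 0.11 and -0.67 ± 0.11. Its dimmer probe, looked at after its values were seen, did not follow, with 0.05 ± 0.28 and 0.23 ± 0.28. Gstp2 read 6.88, 6.87 and 6.6 in HT PSC medium, 6.66, 6.77 and 6.82 in WT PSC medium, and 6.70, 6.84 and 6.65 in control medium, and its groups overlapped (0.06 ± 0.10 and 0.02 ± 0.10, with 95% intervals of -0.16 to 0.27 and -0.20 to 0.24). Gsto1, which reduces dehydroascorbate, had -0.01 ± 0.07 and -0.16 ± 0.07 (adjusted p = 0.98 and 0.231).

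Promoters of the fallen genes were searched for short strings on both strands, since the genes moved together. The windows are RefSeq's, 250 bases before to 50 after each start, in build GRCm38.p6, and none of the strings given here contains another. A window was found for 30 of the 32 genes lower in WT PSC medium and for 31 of the 35 tested without a call. CAAAGTCCA, a form of the site of hepatocyte nuclear factor 4, was in 6 of the 30 and 2 of the 31, beside 0.555% of 27025 genes with a window. The 6 were Cyp2c40, Cyp2c65, Cyp2c67, Cyp2c68, Cyp2c69 and Sult1b1 (Cyp2c69 and Sult1b1 are named because of this match). TGACNNNGC, the core of the antioxidant response element, was in 4 of the 30 and 4 of the 31, beside 14% of all. GCGTG, the core of the aryl hydrocarbon receptor's site, was in 7 of the 30 and 9 of the 31, beside 35.2%, and TATAAA in 13 of the 30 and 9 of the 31, beside 15.7%. A match is a string of letters and not a bound site, and the duplicated Cyp2c promoters are not independent of each other. Their calls may share signal as well, since the probe of Cyp2c69 also lists Cyp2c40, Cyp2c67 and Cyp2c68. That of Cyp2c68 lists Cyp2c40 and Cyp2c69. The 150 bases before the start are shown for 4 of the Cyp2c genes, 5′ to 3′ on the strand of the gene, with CAAAGTCCA in capitals.
Cyp2c65 (chr19:39060856-39061005, plus strand): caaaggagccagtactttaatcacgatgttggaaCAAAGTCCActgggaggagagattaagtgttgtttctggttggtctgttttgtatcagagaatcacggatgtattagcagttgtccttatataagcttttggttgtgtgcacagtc
Cyp2c67 (chr19:39649043-39649192, minus strand): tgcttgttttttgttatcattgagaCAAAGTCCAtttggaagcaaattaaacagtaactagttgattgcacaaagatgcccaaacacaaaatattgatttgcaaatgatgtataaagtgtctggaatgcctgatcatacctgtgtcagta
Cyp2c68 (chr19:39741102-39741251, minus strand): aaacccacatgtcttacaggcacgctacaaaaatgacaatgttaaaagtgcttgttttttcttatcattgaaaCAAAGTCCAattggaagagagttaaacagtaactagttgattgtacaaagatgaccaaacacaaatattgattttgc
Cyp2c40 (chr19:39812815-39812964, minus strand): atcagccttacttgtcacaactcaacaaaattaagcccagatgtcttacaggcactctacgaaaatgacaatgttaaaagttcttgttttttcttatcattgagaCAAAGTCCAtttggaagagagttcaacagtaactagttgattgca
Counted from the start RefSeq gives, the string begins at -116 in Cyp2c65, -77 in Cyp2c68 and -45 in Cyp2c40.

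The regulators and partners of these enzymes were read from lists of the pathway. Of 15 nuclear receptors and hepatocyte factors tested, 5 fell and 0 rose in each PSC medium, and the list's median was -0.13 in HT PSC medium and -0.18 in WT PSC medium. The xenobiotic receptor Nr1i2 (PXR), which induces Cyp3a and Cyp2c genes in liver, fell by 0.74 ± 0.12 in HT PSC medium and by 0.98 ± 0.12 in WT PSC medium. The bile acid receptor Nr1h4 (FXR) fell by 0.68 ± 0.09 and 0.64 ± 0.09, the oxysterol receptor Nr1h3 by 0.51 ± 0.09 and 0.55 ± 0.09, and Pparg by 0.48 ± 0.08 and 0.71 ± 0.08. Hnf4a, named here because of the promoter search, did not pass, with -0.13 ± 0.06 and -0.18 ± 0.06 (adjusted p = 0.263 and 0.104).

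Of 23 targets of NRF2, the factor that answers oxidative stress, 4 fell in HT PSC medium and 5 in WT PSC medium, and 0 rose. The list's median was -0.01 in HT PSC medium and 0.002 in WT PSC medium, beside 0.01 and 0.03 over all genes. Cbr3, a carbonyl reductase, fell by 0.85 ± 0.07 and 1.08 ± 0.07, Ephx1, the microsomal epoxide hydrolase, by 0.81 ± 0.08 and 0.86 ± 0.08, and Nfe2l2, which encodes NRF2, by 0.32 ± 0.06 and 0.45 ± 0.06. Of 10 genes of the aryl hydrocarbon receptor pathway 3 fell in each medium, namely Aldh3a1, Nfe2l2 and Nqo1. That list's median was 0.03 in HT PSC medium and -0.06 in WT PSC medium. Nfe2l2 and Nqo1 are also counted among the NRF2 targets, and Ephx1 also among the conjugating genes, so these counts are not separate. Among 21 cosubstrate and other conjugating genes 6 fell in HT PSC medium and 7 in WT PSC medium: Fmo5, a flavin monooxygenase, fell by 1.02 ± 0.07 and 1.11 ± 0.07, and Adh7, an alcohol dehydrogenase of the upper gut, by 1.75 ± 0.15 and 1.82 ± 0.15. Of 12 transporters 2 fell in each medium, the prostaglandin transporter Slco2a1 (-0.83 ± 0.06 and -0.92 ± 0.06) and the conjugate exporter Abcc3 (-0.38 ± 0.08 and -0.36 ± 0.08). No gene of the 9 P450 partners (reductase, cytochrome b5 and relatives) or of the 7 microsomal glutathione transferases passed in limma in either medium (at an unadjusted p under 0.05 these were 1 and 0 in HT PSC medium, and 2 and 2 in WT PSC medium). Glutathione genes were mixed, with 3 higher and 1 lower of 16 in HT PSC medium and 1 higher and 2 lower in WT PSC medium. Chac1, which breaks glutathione down, rose by 1.17 ± 0.16 and 0.86 ± 0.16, and the synthase Gss fell by 0.35 ± 0.07 and 0.37 ± 0.07. Several of these counts fell when 1 array was left out, as did the calls over all genes. Those were 484 to 928 in HT PSC medium, beside 1077, and 577 to 1051 in WT PSC medium, beside 1172. In HT PSC medium, without any 1 HT array or control array 2, 2 NRF2 targets and 0 or 1 genes of the aryl hydrocarbon receptor pathway were lower, and without HT array 3, 3 nuclear receptors were. In WT PSC medium 3 NRF2 targets were lower without WT array 2 or WT array 3. Of the transporters 1 was lower in either medium without any 1 array of that medium, control array 1 or control array 2, and of the glutathione genes as few as 0.

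Falls were more frequent among the enzyme genes not detected on the stellate cell arrays than among those detected on all of them. Of 13 enzyme genes tested in cancer cells but well above background on 0 of 6 PSC arrays, 10 fell in HT PSC medium and 11 in WT PSC medium. Over all 651 genes of that kind, 12.9% and 17.5% fell. Of 14 enzyme genes detected on 1 to 5 PSC arrays, 9 and 10 fell, beside 5.34% and 6.16% of all such genes. Of 41 detected on all 6, 9 and 11 fell, beside 1.83% and 2.32%. The median differences of the 3 sets were -1.23, -1.19 and -0.10 in WT PSC medium. The grouping uses arrays that the cancer cell fit does not, but it counts array PSC HT 3, which also read genes of the cancer cells. Without that array, an alternative chosen after seeing the data, 3 more enzyme genes had no detection and 2 more had it on every PSC array left. Of 16 enzyme genes then detected on none of the 5 arrays 13 fell in HT PSC medium and 14 in WT PSC medium, beside 14.7% and 19.1% of all such genes. Of 9 detected on 1 to 4 arrays 5 and 6 fell, beside 6.07% and 8.1%, and of 43 detected on all 5 arrays 10 and 12 fell, beside 1.86% and 2.31%. The stellate gene Col1a1 read -4.14 to -3.98 in HT PSC medium, -4.02 to -2.85 in WT PSC medium and -4.72 to -4.22 in control medium.

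**Figure D4:**
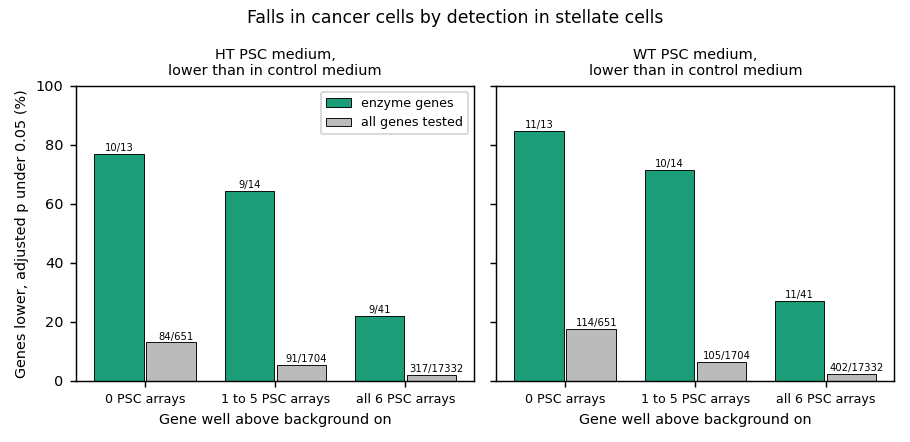
Bars give the percentage of genes lower than in control medium (adjusted p under 0.05), for HT PSC medium on the left and WT PSC medium on the right, by the number of PSC arrays on which the gene was well above background. Green bars are enzyme genes, grey bars all genes tested, and the labels give genes lower over genes tested. The enzyme bars fall to 9 of 41 and 11 of 41 for genes detected on all 6 PSC arrays, against 10 of 13 and 11 of 13 for genes detected on none.

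The second question was whether the genotype of the stellate cells changes what their medium does. In cancer cells in HT PSC medium, 0 of 68 enzyme genes differed from those in WT PSC medium (limma), as did 0% of all genes. At an unadjusted p under 0.05 there were 9 enzyme genes, all higher in HT PSC medium, beside 4.88% of all genes. These included Sult1d1 (0.40 ± 0.07), Ugt2b34 (0.36 ± 0.07) and Gsta3 (0.44 ± 0.10), each with an adjusted p of 0.876 and with no overlap of the 3 arrays per group. These 3 were picked by smallest p, so the lack of overlap is no further test. The dimmer probe of Gsta3 gave 0.09 ± 0.24. Ugt2b36 had 0.48 ± 0.12, Cyp2c65 0.34 ± 0.08 and Cyp2c66 0.32 ± 0.08, also at 0.876. The 95% interval of the difference was 0.23 to 0.57 for Sult1d1 and 0.21 to 0.52 for Ugt2b34. Over the 68 genes the median was 0.07, beside -0.0048 over all genes.

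The third question was how the stellate cells of the 2 genotypes differ. Of 49 enzyme genes tested in PSC HT against PSC WT, 6 were lower and 2 higher, beside 7.73% of all genes tested (4.78% lower, 2.95% higher). At an unadjusted p under 0.05 there were 15, beside 22.2% of all genes. Without array PSC HT 3, 6 passed. The count rested on single arrays elsewhere too: it was 3 without PSC HT 2, 4 without PSC WT 2 and 3 without PSC WT 3. The macrophage markers were higher in PSC HT, with 9 of 10 past the threshold and median levels of 1.09 to 2.78, against -1.22 to -0.39 in PSC WT. Of mesothelial markers 5 of 7 were lower, with median levels of -0.46 to 0.95 in PSC HT and 2.21 to 2.74 in PSC WT. Of endothelial markers 4 of 5 were lower (-4.75 to -4.49 against -4.03 to -3.59). The 11 fibroblast and stellate markers gave 0 calls in limma (3 at an unadjusted p under 0.05), with median levels of 6.32 to 6.59 in PSC HT and 6.34 to 6.38 in PSC WT. The part of these other cells in the differences below was not tested.

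Cyp2s1 read -1.19, -0.66 and 0.21 in PSC HT, against 1.11, 1.85 and 1.83 in PSC WT. It fell by 2.15 ± 0.38 (adjusted p = 0.0239), with the highest PSC HT reading on array 3, and the call was lost without PSC HT 2, PSC WT 2 or PSC WT 3 and with the slide as a block. Gsta3 read -0.67, -0.57 and -0.39 in PSC HT and 0.52, 0.95 and 0.96 in PSC WT, a fall of 1.36 ± 0.15 (adjusted p = 0.00426). Gsto2, like Gsto1 an omega class enzyme that reduces dehydroascorbate, read -2.73, -2.59 and -2.29 in PSC HT and -1.22, -1.20 and -1.21 in PSC WT. It fell by 1.33 ± 0.12 (adjusted p = 0.00231). None of these groups overlapped, but the genes were named because they passed. Gsto1, the neighbour of Gsto2 on chromosome 19, read 4.56, 4.45 and 4.55 in PSC HT and 5.15, 4.96 and 5.03 in PSC WT, a fall of 0.53 ± 0.08 (adjusted p = 0.0151) that was lost without PSC HT 2 or PSC WT 3 and with median centring. Sult4a1 fell by 0.65 ± 0.07 (adjusted p = 0.00393) and Cyp1b1 by 0.40 ± 0.07, to 3.08, 3.14 and 3.17 in PSC HT against 3.51, 3.57 and 3.54 in PSC WT. The fall of Cyp1b1 (adjusted p = 0.0189) was lost without any 1 of 5 of the 6 arrays, with median centring and with a replicate block (adjusted p = 0.0729).

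The genes that rose changed less. Cyp2j9, whose enzyme makes hydroxylated products of arachidonic acid, read -3.32, -2.95 and -3.17 in PSC HT and -4.03, -3.77 and -3.68 in PSC WT, a rise of 0.67 ± 0.13 (adjusted p = 0.0335). Gstt2, a theta class transferase, rose by 0.51 ± 0.09 (adjusted p = 0.0273), which was lost with a replicate block (adjusted p = 0.0541). Both calls were lost without any 1 of 5 of the 6 arrays, PSC HT 3 among them. None of the 7 mu or 2 pi class genes passed between genotypes in limma, and the mu class lay between -0.31 and 0.15. Gstm2 had -0.02 ± 0.10, Gstm3 -0.10 ± 0.08 and Gstp2 -0.03 ± 0.11. A dimmer probe of Gstm6, looked at after its values were seen, was lower in PSC HT by 0.63 ± 0.07 (limma adjusted p = 0.00587). The Gstm6 probe used gave 0.15 ± 0.09. Of the pathway lists, the aryl hydrocarbon receptor Ahr itself fell by 1.36 ± 0.08 (adjusted p = 0.00085), the 1 of 11 genes of that list to pass. The retinal dehydrogenase Aldh1a1 fell by 1.19 ± 0.15 and the microsomal transferase Mgst1 by 0.79 ± 0.10, while Alox5ap, a leukocyte gene of the same list, rose by 2.43 ± 0.41 and the exporter Abcc3 by 0.93 ± 0.13. None of the 23 NRF2 targets passed in limma, and 3 had an unadjusted p under 0.05.

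**Figure D5:**
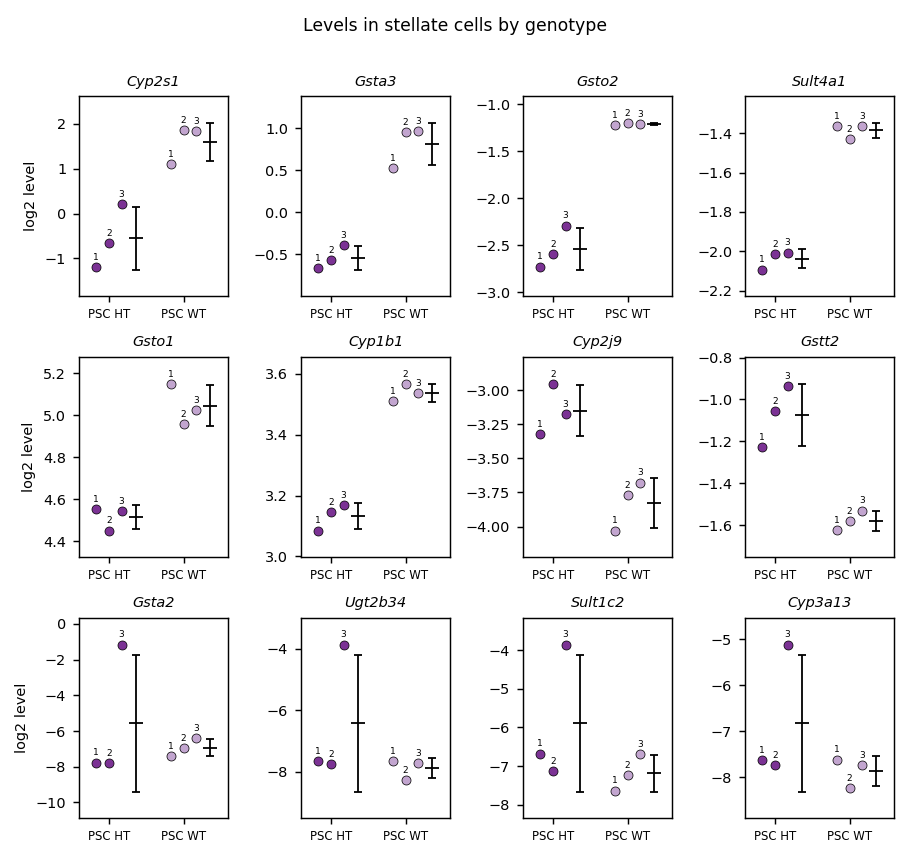
Points are log2 levels on each stellate cell array, PSC HT left of PSC WT, numbered by replicate, with the mean and SD of the 3 arrays beside them; each panel has its own y axis, which does not start at 0. The upper 8 panels are the enzyme genes past the threshold. The lower 4 panels are genes of the cancer cells, of which PSC HT 3 reads -1.16 for Gsta2 and -3.87 for Ugt2b34, above all other PSC arrays.

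Array PSC HT 3 read far above the other stellate cell arrays for 4 enzyme genes of the cancer cells. Gsta2 read -7.77, -7.79 and -1.16 in PSC HT and -7.39, -6.98 and -6.41 in PSC WT. Ugt2b34 read -7.65, -7.76 and -3.87 in PSC HT and -7.65, -8.26 and -7.73 in PSC WT. Sult1c2 read -3.86 and Cyp3a13 -5.12 on this array, against -7.63 to -6.67 and -8.25 to -7.62 on the other 5. None of the 4 entered the test between genotypes, since no group had all 3 arrays well above background.

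The last comparison set the cell types side by side, PSC WT against cancer cells in control medium. Of 73 enzyme genes tested 43 were lower and 15 higher in PSC WT, beside 71.4% of all genes (35.2% lower, 36.1% higher; 73.7% at an unadjusted p under 0.05), and the median of the 73 genes was -1.04 beside 0.04 over all genes. Centring each array on its median instead shifted the median of all genes to -0.35 and that of the enzyme genes to -1.43. Of the member genes, 18 were well above background on all 3 cancer control arrays and no PSC WT array, 2 the other way round, and 43 on all arrays of both. The 18 and the 2 entered the test only through the cell type where they were high. In a separate fit of only the genes detected on every array, 19 of the 43 were lower and 12 higher in PSC WT, beside 12605 calls over all genes. Their median was -0.18, beside -0.05 over all genes detected on every array. Gsta2 was at least 2046-fold lower in PSC WT, with levels of -6.93 in PSC WT and 5.28 in cancer cells. Ugt2b34 was at least 500.4-fold lower, Sult1c2 at least 456-fold, Cyp3a13 at least 269.6-fold, Cyp2c65 at least 153-fold, Cyp2c66 at least 73.1-fold and Cyp4b1 at least 70.0-fold. Sult1d1 read -7.87, -8.34 and -5.44 in PSC WT, of which only the last was well above background, against 0.40, 0.46 and 0.38 in cancer cells.

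Some enzyme genes were higher in the stellate cells, though several of them were also detected in the cancer cells. Gstm2, a mu class transferase, read 4.99, 4.75 and 4.83 in PSC WT and -0.38, -0.02 and -0.06 in cancer cells, higher by 5.01 ± 0.13 (adjusted p = 1.58e-07). Cyp1b1 was higher by 3.09 ± 0.08, at 3.54 in PSC WT and 0.45 in cancer cells. Cyp2d22, of the family that oxidises many basic drugs, was at least 3.91-fold higher and Cyp4a10, a fatty acid hydroxylase, at least 1.70-fold higher. Gstt1 (1.58 ± 0.12), Gsta3 (1.32 ± 0.14), Gstt2 (1.03 ± 0.08), Cyp4v3 (1.55 ± 0.11) and Cyp2j9 (2.05 ± 0.34) were also higher in PSC WT. Ugt1a10 read -2.31, -1.56 and -1.68 in PSC WT and -4.35, -4.50 and -4.02 in cancer cells, the 1 Ugt gene that was higher (2.44 ± 0.23). Of the regulators, Hnf4a read -7.82 in PSC WT and 5.69 in cancer cells, with 0 of 3 PSC WT arrays well above background. In contrast Ephx1 was higher in PSC WT by 3.44 ± 0.09, Aldh1a1 by 4.0 ± 0.14, Mgst1 by 3.41 ± 0.10 and Nnmt, which methylates nicotinamide, by 7.94 ± 0.12.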

How the data were processed

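The deposited scanner files hold 1-colour intensity values per spot, which, per the file headers, came from version 10.7.3.1 of Agilent's Feature Extraction. How the log2 values of the deposited series matrix were prepared is not given in the sources used here. It served as an alternative within a cell type. Probe coordinates are those of the file headers' build, mm9.

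Processed signals were put on the log2 scale and lowered by the 75th percentile of their array (913 to 1449 signal units). Spots marked as outliers (49 to 115 per array) were left out and repeated probes averaged. The probe with the highest mean over the 15 arrays stood for a gene, and a gene was tested where some group of the fit had it well above background on its 3 arrays. RefSeq names (GRCm38.p6) matched 156 of the 174 enzyme probes by accession and 18 by symbol. limma 3.58.1 (R 4.3.3) gave the differences, in 1 fit each for the stellate cells, the cancer cells and the cell types, with Benjamini-Hochberg adjustment over all genes at 0.05. "At least N-fold" sets the brighter group against the higher of the dim probe's own reading and each array's lowest signal well above background. The number of arrays, 3 per group, limits the precision. The fits were tested on simulated data.

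Genes are named by rule: in each comparison the 10 strongest rises and the 10 strongest falls among the calls, filled to 3 by smallest p. The 3 genes of each family with the highest mean and up to 4 past the threshold of each pathway list are named too. The members, lists and rule were chosen with earlier results of these data known. Replicate numbers are shared across groups. Same-numbered arrays in WT PSC medium and control medium deviated together over genes (r = 0.206, 0.252 and 0.221), so by the rule used here they count as paired, from the data and not the labels. Of the 3 arrays in WT PSC medium, 2 correlated best with the control array of their own number. The differences reported come from fits without this pairing, and the replicate block is an alternative run. In the other comparisons not every pair exceeded 0.1. The arrays lay on 2 slides, and each slide held arrays of every group. One regulator and its promoter string are not reported here.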

Additional observations from a re-analysis of the deposited data

How the results depend on the processing

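Called differences of single enzyme genes were recomputed only for genes named by the rule in that comparison. These were all 8 calls in PSC HT over PSC WT and 20 of 58 between the cell types. In WT PSC medium they were 11 of 33 and in HT PSC medium 11 of 29. None of the recomputed differences changed direction under any alternative run. The runs were background correction, quantile normalization, median centring, filters, single probes, and slide or replicate block. Further runs were 1 fit of all arrays, variance trend, series matrix values and leaving out arrays. The other calls, Cyp4f14 among them, were followed by the counts of their families and, within slides, by direction. The counts that follow are of all enzyme genes past the threshold under a setting. In PSC HT over PSC WT the count, 8 in the report, was 3 with no filter on dim probes and 3 at an adjusted p of 0.01. It was 3 to 8 with 1 array left out. Over all genes the calls went from 1615 to 401 with no filter and to 520 at 0.01. Beside 29 in HT PSC medium, 19 passed with all 15 arrays in 1 fit, which pools the spread of the stellate cell arrays, and 23 to 26 with 1 array left out. Over all genes that 1 fit gave 870 calls, beside 1077. Beside 33 in WT PSC medium, 21 passed with all arrays in 1 fit (955 over all genes, beside 1172), and 28 to 31 with 1 array left out. Within a slide a group has 1 or 2 arrays, too few for a count of calls to be read. The signs held there: all 29 of HT PSC medium had the same direction within both slides. Of the 33 of WT PSC medium 32 did within slide 1, where Ugt2a3 had no reading, and 33 within slide 2. Between HT and WT PSC medium 0 passed under each alternative. Beside 58 between the cell types, 31 passed when only genes well above background on every array were tested, and 56 to 58 with 1 array left out. With the replicate block 26 passed in HT PSC medium and 32 in WT PSC medium, where Sult4a1 in HT PSC medium and, in WT PSC medium, Cyp4f14 and Cyp2c55 (adjusted p = 0.0567) were lost among the genes named. With normexp, quantile normalization or median centring the Gst genes lower numbered 2 to 6 in HT PSC medium and 5 to 7 in WT PSC medium, the NRF2 targets 2 to 4 and 2 to 5, and the nuclear receptors 2 to 5 and 3 to 5. Probes not well above background have only a bound, which limits Cyp2c55, Ugt1a10 and Ugt2a3, and Sult1d1 in PSC WT.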
